A study of Homo sapiens with 24 samples.

Results

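Cadherins are calcium-dependent adhesion molecules that join neighbouring cells. The expression of 8 of them was examined across 2 human hepatocellular carcinoma (HCC) cell lines and 4 treatments, namely *CDH1*, *CDH2*, *CDH3*, *CDH4*, *CDH6*, *CDH11*, *CDH13* and *CDH17*. The members were chosen by name, and every non-control probe whose transcript identifier on the array belonged to one of these genes was kept. The selection gave 10 probes for the 8 genes, out of 58201 probes and 31204 named genes on the array. *CDH2* and *CDH13* each had a pair of probes and the other members had 1 probe each.

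PLC/PRF/5 and SNU-449 cells were serum-starved overnight and then cultured for 16 h without further addition (untreated control cells), with 1 ng/mL recombinant human TGFβ1, with 10 µM galunisertib (also known as LY2157299, an inhibitor of the kinase activity of the type I TGFβ receptor), or with both agents together. Each of the 8 groups comprised 3 independent cultures, and each culture was hybridised to its own one-colour array, for 24 arrays in all. Both lines are established cultures grown as pure tumour cells, with no stromal or immune neighbours, and all groups shared the same starvation and culture time. The 24 arrays lay on 3 slides of 8, each slide holding 1 culture of every group, and TGFβ1-treated and TGFβ1-free cells lay in different rows of every slide, so that slide row and TGFβ1 cannot be told apart. Each line, with and without galunisertib, likewise had a column of every slide to itself, and slide column cannot be told apart from line and galunisertib.

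E-cadherin, the product of *CDH1*, holds epithelial cells together at adherens junctions, where its cytoplasmic tail binds β-catenin and p120-catenin and, through α-catenin, the actin cytoskeleton. During epithelial-to-mesenchymal transition (EMT), a programme that TGFβ can trigger, many epithelial cells lower E-cadherin and raise N-cadherin, the product of *CDH2*; transcription factors of the SNAIL, ZEB and TWIST families are the best known repressors of *CDH1*. Hepatocytes are unusual among epithelial cells in that they normally carry both E-cadherin and N-cadherin. *CDH6* (K-cadherin) and *CDH11* (OB-cadherin) are type II cadherins known from kidney and from mesenchymal cells, respectively, and *CDH3* (P-cadherin) and *CDH4* (R-cadherin) are type I cadherins. *CDH13* (T-cadherin), which is anchored by a lipid and has no cytoplasmic tail, and *CDH17* (LI-cadherin), best known from the intestine, are relatives that do not bind catenins as the classical members do.

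Levels are given as log2 of the processed signal over the 75th percentile of the spots of the same array. This percentile ranged from 145 to 262 intensity units, and 41.6% to 49.6% of the probes were well above background by the scanner software. Signals below 5.70% of the percentile, a log2 level of -4.13, were set to this floor. Genes measured by different probes are not compared in level. All 10 hepatocyte markers examined were higher in PLC/PRF/5 control cells, in a comparison that called 68.6% of all genes. Of them, 5 were well above background in no SNU-449 control culture. Of 5 epithelial markers, 4 were higher in PLC/PRF/5 control cells and 1 did not pass the test. Of 4 tested mesenchymal markers, 3 were lower there and 1 was higher. In both of these lists, 1 passing gene was well above background in no control culture of the line where it was lower. All 4 genes used to follow the pathway (*SKIL*, *SMAD7* and *PMEPA1* among them) fell in SNU-449 cells treated with galunisertib, where 7.47% of all genes passed. Of the markers of endothelial and blood cells on the array, 2 of 5 and 2 of 4, respectively, passed the filter on dim probes. Added TGFβ1 raised 3 of the 4 pathway genes in SNU-449 cells and 3 of the 3 tested in PLC/PRF/5 cells. Of all genes, 10.5% and 13.5% passed in these comparisons, in either direction. Fewer cells that carry a transcript and less of it per cell cannot be told apart in these bulk RNA samples.

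Only 3 of the 8 cadherins were measured, the other 5 being near background in both lines. *CDH1* and *CDH2* were well above background on all 24 arrays, and *CDH6* on the 12 arrays of SNU-449 cells and on none of PLC/PRF/5 cells. *CDH3*, *CDH11* and *CDH17* were well above background on no array. *CDH4* reached that level on 1 array, in replicate 2 of SNU-449 cells given both agents, at 7.16% of the 75th percentile. *CDH13* likewise reached it on 1 array by 1 of its probes, at 8.25%, in replicate 1 of the same group.

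The signals of these 5 genes spread around 0 after background subtraction. *CDH3* was the least dim of them, between -0.134% and 5.43% of the 75th percentile with a median of 2.25%. *CDH11* ranged from -1.32% to 2.17% and *CDH17* from -3.12% to 2.62%, and 17 of the 24 arrays gave a *CDH17* signal at or below 0. The probes were single spots, and that of *CDH17* lay near the edge of the array. No treatment of either line brought any of the 5 genes above background in all 3 cultures, and they were therefore left out of the tests. A transcript at or below this limit was not detectable, which does not show that it is absent.

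**Figure D1:**
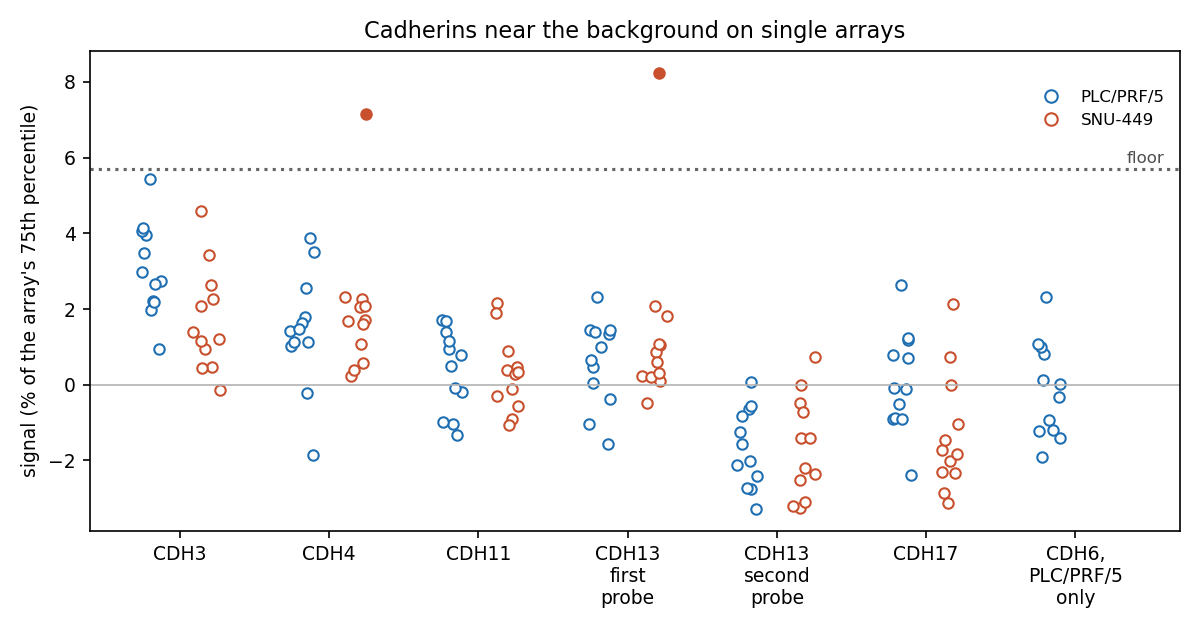
Background-subtracted signal on each array, as a percentage of the 75th percentile of the array, for the 5 cadherins that were not tested and for *CDH6* in PLC/PRF/5 cells. Each point is 1 of 24 arrays (12 for *CDH6*), filled points were well above background, and the dotted line is the floor of 5.70%; 2 points, at 7.16% for *CDH4* and 8.25% for *CDH13*, stand above it.

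The first comparison asked how the cadherins differed between the untreated lines. *CDH1* was higher in PLC/PRF/5 cells, and *CDH2* and *CDH6* were higher in SNU-449 cells. The *CDH1* level in the 3 control cultures was 2.13, 2.30 and 2.53 in PLC/PRF/5 cells, against -1.98, -1.06 and -1.29 in SNU-449 cells. The lines did not overlap, and the SNU-449 cultures spread more widely (SD 0.48, n = 3) than the PLC/PRF/5 cultures (SD 0.20, n = 3). The difference was 3.76 on the log2 scale (SE 0.20, adjusted p = 1.6e-12), equal to 13.6-fold, and within the 3 slides it ranged from 3.36 to 4.11. Differences were tested with limma, and an adjusted p is adjusted by the Benjamini-Hochberg method over all genes tested.

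*CDH6*, which was at the floor on every PLC/PRF/5 array, had levels of 0.31, 0.79 and 0.72 in SNU-449 control cells. The SNU-449 mean of 0.61 was at least 24-fold above the limit of PLC/PRF/5 control cells. No p-value is given for this bound, because the PLC/PRF/5 values were all set to the floor and have no spread. *CDH6* was well above background in no PLC/PRF/5 culture at any treatment.

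N-cadherin separated the lines less. The brighter *CDH2* probe gave 3.69, 3.83 and 3.79 in PLC/PRF/5 control cells and 4.93, 5.16 and 5.17 in SNU-449 control cells. Every SNU-449 culture lay above every PLC/PRF/5 culture, by 1.32 on the log2 scale (SE 0.09, adjusted p = 9.7e-11) or 2.49-fold. The second probe of the gene gave a smaller difference in the same direction, 0.38 (SE 0.09, adjusted p = 9.0e-04 over all probes), and the size therefore depends on the probe. All 3 tested members passed between the lines, as did 68.6% of the 17853 genes tested, but *CDH6* passed against values set to the floor.

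**Figure D2:**
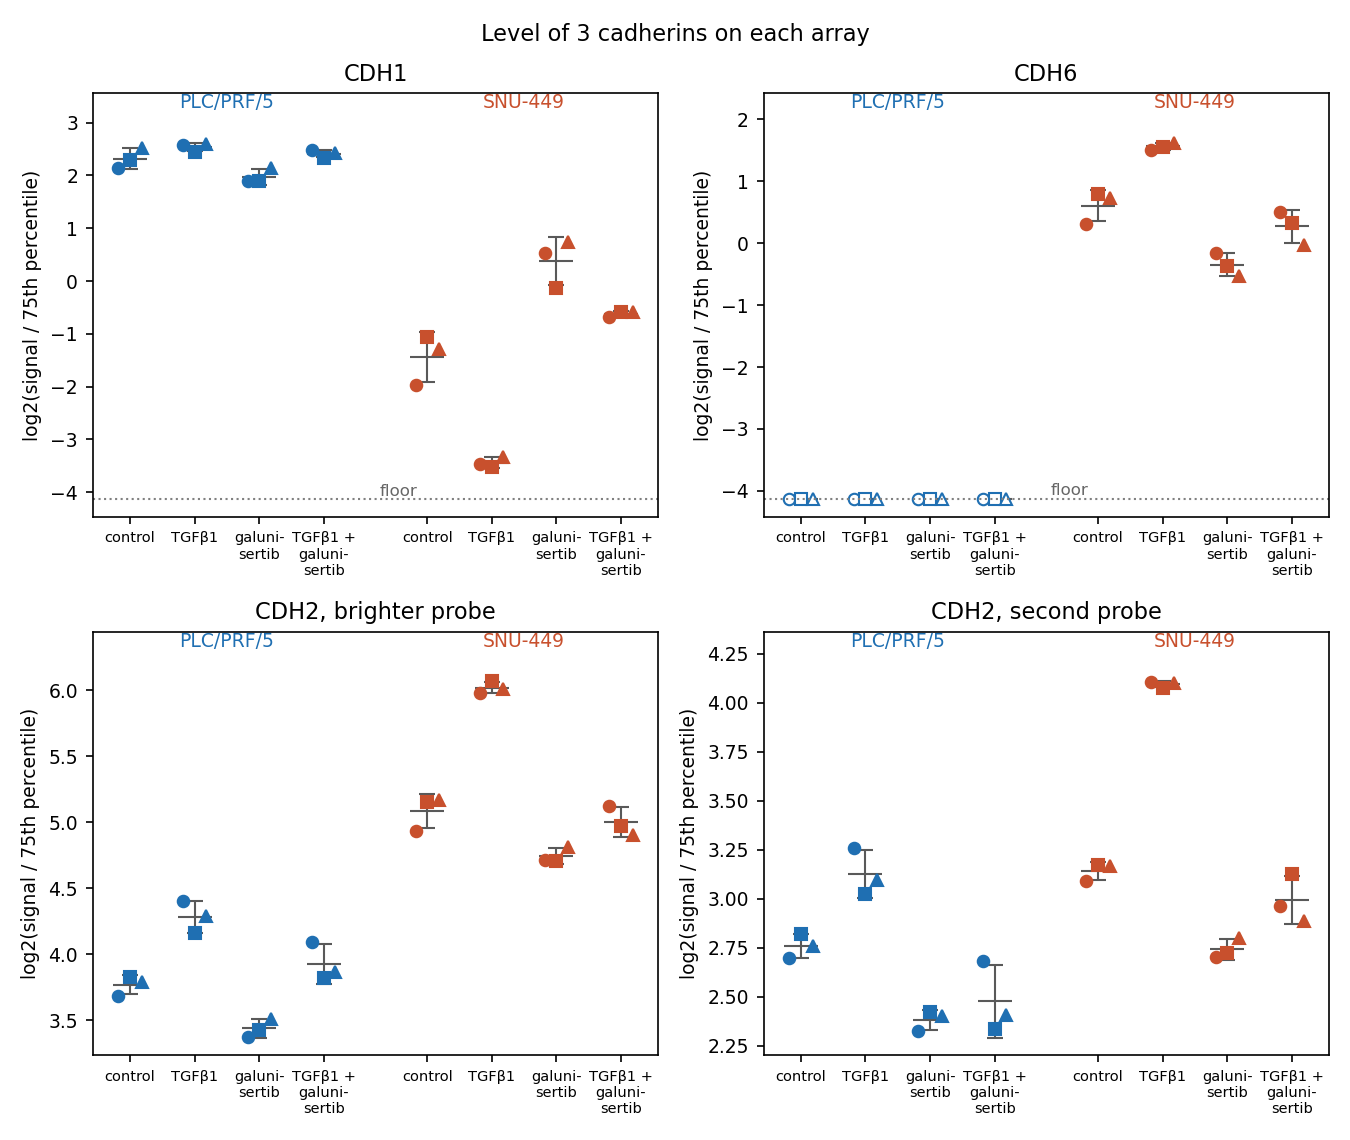
Level of *CDH1*, *CDH6* and both *CDH2* probes on each of the 24 arrays, as log2 of the signal over the 75th percentile of the array, by line and treatment. Circles, squares and triangles are replicates 1, 2 and 3, open symbols were not well above background, bars are the mean ± SD of 3 cultures; in SNU-449 cells *CDH1* lies lowest with TGFβ1 (mean -3.44) and highest with galunisertib (mean 0.38), and the order is turned for *CDH2* and *CDH6*.

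The effect of added TGFβ1 was examined next. In SNU-449 cells *CDH1* fell, and *CDH2* and *CDH6* rose. *CDH1* levels with TGFβ1 were -3.47, -3.52 and -3.33. All of them lay below the lowest control culture (-1.98), and they approached the floor. The fall was 2.00 on the log2 scale (SE 0.25, adjusted p = 6.7e-04), equal to 4.0-fold, which ranked 59th by size among 16072 genes tested in this line. Within slides the difference ranged from -2.46 to -1.49. With the normexp background correction and an added offset of 50 intensity units, which raises dim signals, it was -0.90 (adjusted p = 0.0042). *CDH1* in the SNU-449 cultures with TGFβ1 had only 19.7 to 24.3 units, less than this offset.

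*CDH2* levels with TGFβ1 were 5.98, 6.07 and 6.01, each above every control culture. The rise was 0.93 (SE 0.09, adjusted p = 1.5e-04), and the second probe gave 0.95. *CDH6* levels were 1.5, 1.56 and 1.62, again above every control culture, with a rise of 0.95 (SE 0.16, adjusted p = 0.0044). All 3 tested cadherins passed the test, against 10.5% of all genes tested in this comparison.

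Galunisertib given alone raised *CDH1* and lowered *CDH6* in SNU-449 cells. *CDH1* levels with galunisertib were 0.52, -0.13 and 0.75, and the lowest of them lay above the highest control culture (-1.06). The rise was 1.82 on the log2 scale (SE 0.25, adjusted p = 0.0027), or 3.54-fold, ranked 106th of 16072 genes. It varied between slides more than the fall with TGFβ1 did, from 0.93 on slide 2 to 2.50 on slide 1. A pooled test of each gene alone gave an adjusted p of 0.14. That test leaves out the random variance model named in the paper's methods.

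*CDH6* levels with galunisertib were -0.16, -0.37 and -0.53, all below the lowest control culture (0.31). They fell by 0.96 (SE 0.16, adjusted p = 0.0083). The adjusted p was 0.076 when arrays were scaled to their median and 0.13 by the same pooled test. *CDH2* levels were 4.71, 4.71 and 4.81 by the brighter probe, also below every control culture. The difference of -0.34 (SE 0.09) had an adjusted p of 0.052 and did not pass, whereas the second probe, at -0.40, had an adjusted p of 0.029 over all probes. The gene passed under 5 of 14 alternative settings and without control replicate 1 (adjusted p = 0.039). Thus 2 of the 3 tested cadherins passed, against 7.47% of all genes.

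When galunisertib was added to TGFβ1, *CDH1* rose and *CDH2* and *CDH6* fell in SNU-449 cells, relative to TGFβ1 alone. With both agents *CDH1* levels were -0.69, -0.59 and -0.59, far above the cultures with TGFβ1 alone. The difference of 2.82 (SE 0.25, adjusted p = 4.6e-05), or 7.07-fold, ranked 38th of 16072 genes, and within slides it lay between 2.74 and 2.94. *CDH2* levels with both agents were 5.13, 4.97 and 4.90, lower than with TGFβ1 alone by 1.02 (SE 0.09, adjusted p = 5.0e-05), and *CDH6* levels were 0.50, 0.33 and -0.02, lower by 1.29 (SE 0.16, adjusted p = 4.2e-04). The groups did not overlap for any of them, but such separation of 3 cultures from 3 was not counted over all genes. All 3 tested cadherins passed, against 17.1% of all genes, and each kept its call under all 14 alternative settings tried and without each of the 6 cultures in turn; with normexp the *CDH1* value was 1.42.

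How far TGFβ1 still acted in the presence of galunisertib was given by the comparison of both agents with galunisertib alone. In SNU-449 cells *CDH1* was lower by 1.00 (SE 0.25, adjusted p = 0.084), *CDH2* differed by 0.26 (SE 0.09, adjusted p = 0.20) and *CDH6* by 0.62 (SE 0.16, adjusted p = 0.095). None of the 3 passed, against 1.9% of all genes. The 95% confidence intervals excluded 0 for each (-1.56 to -0.44, 0.05 to 0.46 and 0.26 to 0.99). These intervals hold for a single gene and are not adjusted for the number of genes tested. The groups did not overlap for any of the 3, but such separation of 3 cultures from 3 was not tested over all genes. All 4 genes used to follow the pathway rose in the same comparison. *CDH1* passed without galunisertib replicate 2, with an adjusted p of 0.025 and a difference of -1.26, or with normexp (adjusted p = 0.024), and *CDH6* passed without replicate 3 of both agents, with an adjusted p of 0.047.

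A further pair of comparisons was added after these values had been seen. With both agents, none of the 3 tested cadherins passed against control in SNU-449 cells, where 0.479% of all genes did: *CDH1* was higher by 0.82 (SE 0.25, adjusted p = 0.20; 95% interval 0.26 to 1.38), while *CDH2* differed by -0.09 and *CDH6* by -0.34. The change that galunisertib made to the TGFβ1 effect was -0.68 for *CDH2* (SE 0.13, adjusted p = 0.027), 1.00 for *CDH1* (SE 0.36, adjusted p = 0.19) and -0.33 for *CDH6* (SE 0.23, adjusted p = 0.48). Thus 1 of the 3 passed, against 2.63% of all genes, and with the slide as a replicate block the *CDH2* adjusted p was 0.062. That call also did not hold without 5 of the 12 cultures in turn (highest adjusted p 0.086), and the *CDH1* value was 0.10 with normexp.

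The *CDH1* probe was printed as 10 spots on every array, which gave a measure of technical error within arrays. After removal of 6 outlier spots over the 24 arrays, the coefficient of variation (CV) between spots was 6.86% to 15.3% in PLC/PRF/5 cells. It reached 22.1% in SNU-449 cells with TGFβ1, the dimmest group, where 26 of the 28 spots kept were well above background. The TGFβ1 effect in SNU-449 cells was negative at each of the 10 spot positions, between -2.47 and -1.73. The galunisertib effect was positive at each of them, between 1.28 and 2.02. Spots of an array share its RNA and are technical repeats, and only the 3 cultures entered the tests.

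**Figure D3:**
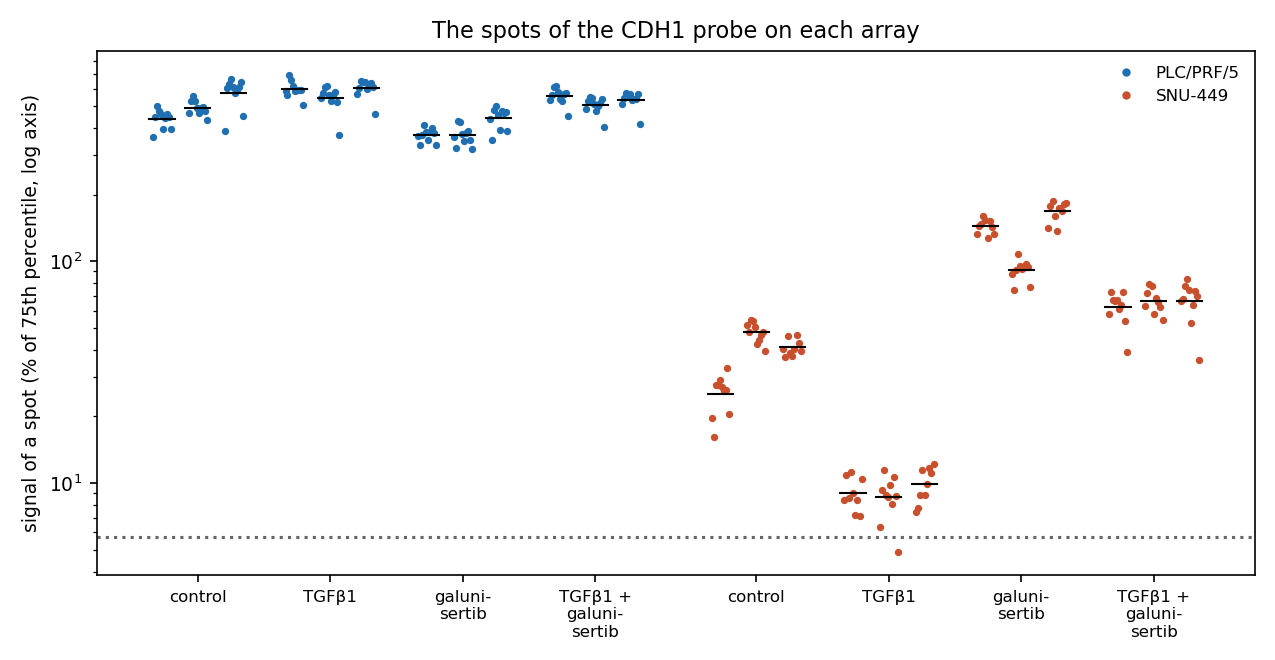
Signal of every *CDH1* spot kept, as a percentage of the 75th percentile of its array on a log axis, in columns of 1 array each, 3 arrays per group, with the mean of each array as a black line and the floor of 5.70% as a dotted line. Spots of SNU-449 cells with TGFβ1 lie between 4.92% and 12.2%, and those of control SNU-449 cells between 16.1% and 54.4%.

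In PLC/PRF/5 cells only *CDH1* and *CDH2* could be tested. *CDH2* rose with TGFβ1, and *CDH1* did not pass the test. *CDH1* levels with TGFβ1 were 2.58, 2.45 and 2.59, overlapping with those of control cells. The difference of 0.22 (SE 0.11, adjusted p = 0.22, 95% interval -0.02 to 0.46) did not pass, and its interval excluded a fall of the size seen in SNU-449 cells. *CDH2* levels with TGFβ1 were 4.41, 4.16 and 4.29, above every control culture, with a rise of 0.51 (SE 0.09, adjusted p = 0.0055) by the brighter probe and 0.37 by the second (adjusted p = 0.046 over all probes). Thus 1 of 2 passed, against 13.5% of all genes. The *CDH2* call was lost when arrays were scaled to their median (adjusted p = 0.21) or not scaled (adjusted p = 0.095).

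With galunisertib alone, *CDH1* levels were 1.89, 1.89 and 2.14 and *CDH2* levels 3.38, 3.43 and 3.51 in PLC/PRF/5 cells. Each *CDH2* value and 2 of the 3 *CDH1* values lay below the lowest control culture, the other *CDH1* value being just above it. The differences were -0.35 for *CDH1* (SE 0.11, adjusted p = 0.095) and -0.33 for *CDH2* (SE 0.09, adjusted p = 0.070). Neither passed, against 5.43% of all genes. Both passed when the arrays were scaled to the 75th percentile of those probes that every array measured above background, with adjusted p of 0.040 and 0.022.

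With both agents, *CDH1* levels were 2.48, 2.34 and 2.42 and *CDH2* levels 4.10, 3.82 and 3.87 in PLC/PRF/5 cells. Against TGFβ1 alone, *CDH2* fell by 0.36 (SE 0.09, adjusted p = 0.013), and *CDH1* differed by -0.13 (SE 0.11, adjusted p = 0.39). The second *CDH2* probe gave -0.65 there (adjusted p = 9.8e-04 over all probes). This comparison called 39.1% of all genes, so that 1 of 2 cadherins is close to the background, and without TGFβ1 replicate 1 the *CDH2* adjusted p was 0.058, and with scaling to the array median it was 0.56. Against galunisertib alone, *CDH1* was higher by 0.44 (SE 0.11, adjusted p = 0.039) and *CDH2* by 0.49 (SE 0.09, adjusted p = 0.019), against 8.54% of all genes. The second *CDH2* probe gave 0.09 (adjusted p = 0.60), and the *CDH1* call held without 1 of the 6 cultures only, the highest adjusted p being 0.11. Without galunisertib replicate 1 that of *CDH2* was 0.063, and each gene kept its call under 8 of 14 alternative settings. Against control cells, *CDH1* differed by 0.09 and *CDH2* by 0.16, and neither passed, against 25.9% of all genes. The second *CDH2* probe had the opposite sign in this comparison, at -0.28 (adjusted p = 0.074 over all probes).

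**Figure D4:**
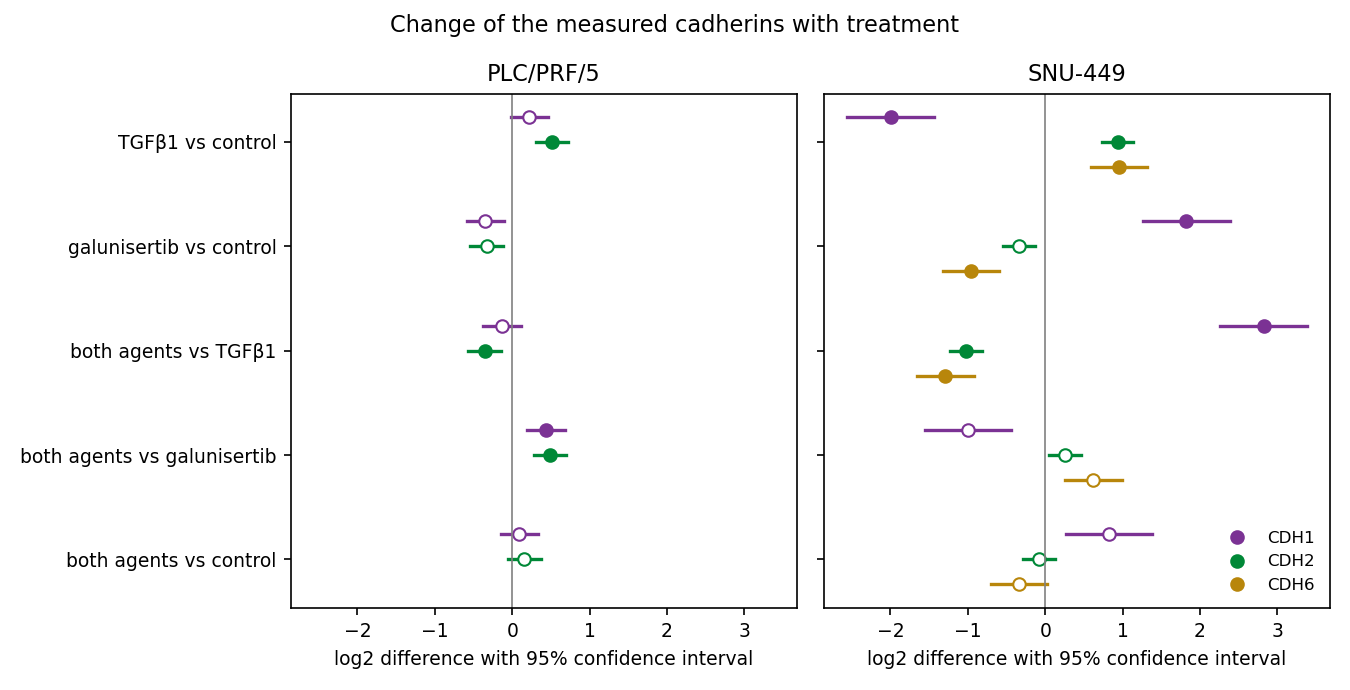
Log2 difference of *CDH1*, *CDH2* (brighter probe) and *CDH6* between treatments in each line, with 95% confidence intervals from limma over the 12 arrays of the line; filled points passed at an adjusted p of 0.05. In SNU-449 cells *CDH1* lies on the opposite side of 0 from *CDH2* and *CDH6* in every comparison shown. For both agents against control the intervals of *CDH2* and *CDH6* include 0. *CDH6* has no point in PLC/PRF/5 cells, where it was at the floor.

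Whether the lines responded differently was tested on the differences themselves, over all 24 arrays. *CDH6* was left out, because a gene at the floor throughout 1 line has no measured response there. The TGFβ1 effect on *CDH1* was the lower in SNU-449 cells (difference from PLC/PRF/5 cells -2.22 on the log2 scale, SE 0.28, adjusted p = 2.6e-05). The galunisertib effect on *CDH1* was higher by 2.17 (SE 0.28, adjusted p = 9.9e-05), and the effect of adding galunisertib to TGFβ1 was higher by 2.95 (SE 0.28, adjusted p = 4.1e-07). The *CDH1* responses therefore differed between the lines in all 3 comparisons, in which 8.63%, 5.89% and 29.2% of all genes did. These calls held under every one of the 13 alternative settings run and without each culture in turn.

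For *CDH2* the lines were closer. The galunisertib effect differed by -0.01 (SE 0.13, adjusted p = 0.98), with a 95% interval from -0.28 to 0.26. The TGFβ1 effect was larger in SNU-449 cells by 0.42 (SE 0.13, adjusted p = 0.047). This call, by the brighter probe, held under only 2 of 13 alternative settings and without only 4 of the 12 cultures. With the replicate block its adjusted p was 0.063. In the fit over all probes the second probe passed, at 0.58 (SE 0.13, adjusted p = 0.0066), and the brighter probe did not (adjusted p = 0.063). The fall on adding galunisertib to TGFβ1 was larger in SNU-449 cells (difference -0.66, SE 0.13, adjusted p = 7.8e-04), although the adjusted p was 0.059 without scaling.

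A threshold from the paper's figure legends, a change over 2-fold with an unadjusted P below 0.001, was applied to the same fits. The paper's supplementary lists of galunisertib genes give a looser P. All 3 tested cadherins passed the 2-fold threshold between the untreated lines, against 34.4% of all genes, *CDH6* against values set to the floor. In SNU-449 cells only *CDH1* passed with TGFβ1 (2.33% of all genes) and with galunisertib (1.14%), and all 3 passed with both agents against TGFβ1 alone (3.82%). None of the 3 passed with both agents against galunisertib (0.697%) or against control (0.373%), or for the change of the TGFβ1 effect (1.36%). In PLC/PRF/5 cells neither *CDH1* nor *CDH2* passed with TGFβ1 (1.1% of all genes), galunisertib (0.342%), both agents against TGFβ1 (3.09%), galunisertib (0.288%) or control (0.648%), or for the change of the TGFβ1 effect (1.19%), for which none passed by adjusted p either, against 8.77%. Of the line differences, *CDH1* alone passed for galunisertib (1.55%), TGFβ1 (2.3%) and the addition of galunisertib to TGFβ1 (6.16%).

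The genes around the cadherins were described from lists of regulators and partners. Of the 9 tested repressors of *CDH1*, 8 were lower in PLC/PRF/5 control cells than in SNU-449 control cells and 1 was higher, in a comparison that called 68.6% of all genes. Of the 8 lower, 4 were well above background in no PLC/PRF/5 control culture, so that their calls depend on the filter and the floor. The median difference over the list, which rests in part on these genes, was -2.85 on the log2 scale, against 0.06 over all genes tested. *TWIST1* was at least 18.2-fold, *ZEB2* at least 14.1-fold and *SNAI2*, encoding SLUG, at least 8.33-fold higher in SNU-449 cells. *SNAI1*, encoding SNAIL, was instead higher in PLC/PRF/5 cells, by 1.08 (SE 0.10). Of the 9 tested epithelial regulators, 8 were higher in PLC/PRF/5 cells and none was lower, with a median difference of 1.22 against the same 0.06 over all genes. Of these 8, 2 were well above background in no SNU-449 control culture.

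In SNU-449 cells with TGFβ1, 4 of the 9 repressors rose and 1 fell. *SNAI1* rose by 3.40 (SE 0.12, adjusted p = 1.9e-07) and *SNAI2* by 1.06 (SE 0.16), while *TWIST1* fell by 0.68 (SE 0.14). With both agents against TGFβ1 alone, 4 of the 9 fell and 1 rose, and *SNAI1* fell by 3.66 (SE 0.12) and *SNAI2* fell by 1.15 (SE 0.16). With galunisertib alone 2 of the 9 fell and 1 rose, the largest change being that of *FOXC2*, which fell by 0.71 (SE 0.17). *SNAI1* did not pass there, at -0.40. The median over the list was 0.18 with TGFβ1, -0.26 with both agents against TGFβ1 and -0.24 with galunisertib, against 0.02, 0.01 and 0.09 over all genes tested, of which 10.5%, 17.1% and 7.47% passed.

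In PLC/PRF/5 cells 5 repressors could be tested. With TGFβ1 only *SNAI1*, named here after its value was seen, passed, and it fell by 0.57. In that comparison 13.5% of all genes passed. With both agents against TGFβ1 alone 2 of the 5 rose and 1 fell, against 39.1% of all genes called. *SNAI1* rose by 0.96 (SE 0.08) and *TCF4* fell by 0.70 (SE 0.20). The TGFβ1 effect on *SNAI1* therefore differed between the lines, by 3.97 on the log2 scale (SE 0.14, adjusted p = 9.8e-13).

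Of the 7 epithelial regulators tested in SNU-449 cells, 4 fell and 1 rose with TGFβ1. The liver transcription factor *FOXA2* fell by 0.80 (SE 0.11) and *ELF3* by 1.01 (SE 0.15), whereas *KLF4* rose by 1.08 (SE 0.18). With galunisertib alone 4 of the 7 rose and none fell, *FOXA2* rising by 1.02. With both agents against TGFβ1 alone 4 rose, among them *FOXA2* by 1.27 and *ELF3* by 1.24, and *KLF4* fell by 1.04. The median over the list was -0.54 with TGFβ1, 0.46 with galunisertib and 0.56 with both agents against TGFβ1, against 0.02, 0.09 and 0.01 over all genes, of which 10.5%, 7.47% and 17.1% passed. With TGFβ1 in PLC/PRF/5 cells 1 of 9 passed, against 13.5% of all genes. This was the intestinal factor *CDX2*, which fell by 0.61.

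Of 14 tested catenins and adherens junction partners, none rose and 3 fell in SNU-449 cells with TGFβ1, namely *CTNNAL1* (-0.57), *AJUBA* (-0.47) and *PKP4* (-0.44). The core catenin genes *CTNNA1*, *CTNNB1* and *CTNND1* did not pass. With galunisertib alone 2 of 14 rose, *JUP*, encoding plakoglobin, by 0.72 (SE 0.11) and *CTNNAL1* by 0.57. With both agents against TGFβ1 alone 2 of 14 rose, *CTNNAL1* by 0.87 and *AJUBA* by 0.45. The medians over the list were -0.02, 0.09 and -0.02 in these comparisons, against 0.02, 0.09 and 0.01 over all genes, of which 10.5%, 7.47% and 17.1% passed.

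Of the 6 tested desmosome genes, *DSP*, encoding desmoplakin, and the desmosomal cadherin *DSC2* rose in SNU-449 cells with TGFβ1, by 0.89 (SE 0.07) and 0.71 (SE 0.12). Both fell with both agents against TGFβ1 alone, by 0.98 and 0.82. Of all genes, 10.5% passed with TGFβ1 and 17.1% with both agents against TGFβ1 in this line. *FURIN*, whose product cleaves cadherin precursors among many other substrates, was the only one of 8 processing genes to pass with TGFβ1. It rose by 1.99 (SE 0.14) in SNU-449 cells and by 1.77 (SE 0.09) in PLC/PRF/5 cells. The count of 1 of 8 is close to the 10.5% and 13.5% of all genes that passed in these lines.

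**Figure D5:**
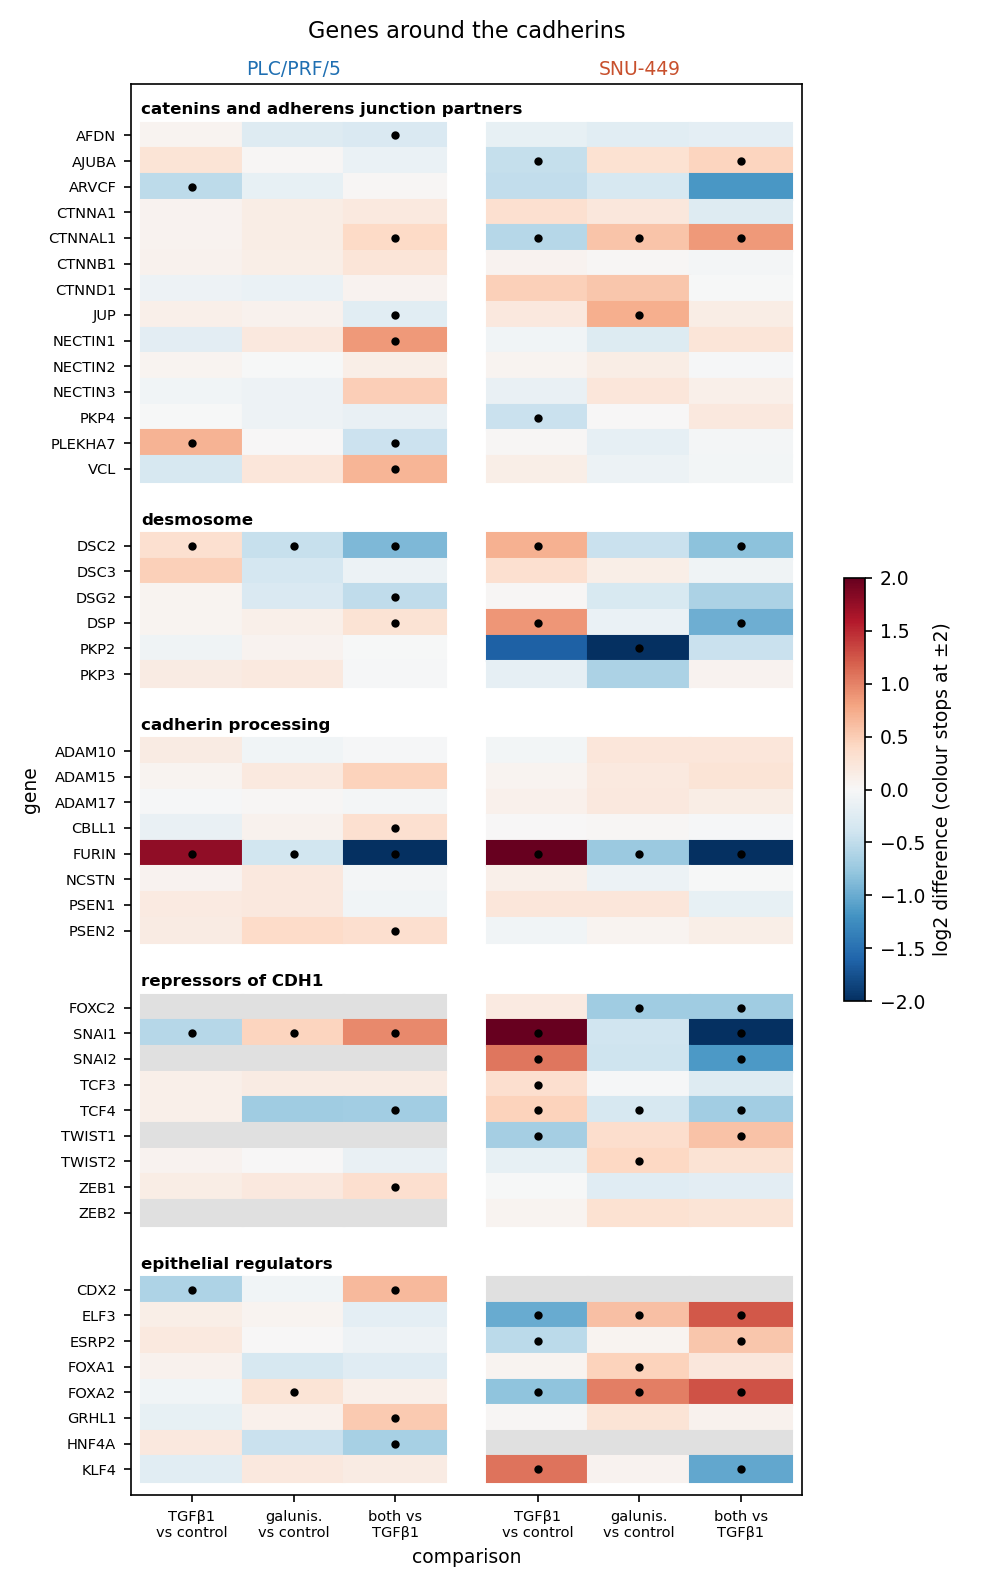
Log2 difference of tested genes of 5 lists, all but 1 of them shown, in 3 comparisons of each line, as colour that stops at ±2, with a black dot where the gene passed at an adjusted p of 0.05 and grey where it was not tested. *SNAI1* is red with TGFβ1 in SNU-449 cells (3.40) and blue in PLC/PRF/5 cells (-0.57), whereas *FURIN* is red in both.

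Further members of the cadherin family were mostly dim. Of 14 listed, 8 passed the filter over all arrays. Between the control cells 2 of the 8 were higher and 3 lower in PLC/PRF/5 cells, and 3 did not pass. This comparison called 68.6% of all genes. *CDH9* was at least 5.66-fold and *CDH16* at least 4.03-fold higher in SNU-449 cells, and *CDH26* at least 4.68-fold higher in PLC/PRF/5 cells. These 3 values are bounds, as each gene was well above background in no control culture of the other line. With TGFβ1 in SNU-449 cells 1 of 7 tested passed, *CDH10*, at least 1.56-fold higher, against 10.5% of all genes. With both agents against TGFβ1 alone 3 of the 7 rose, *CDH16* by 0.92, *CDH24* by 0.82 and *CDH9* by 0.76, and *CDH10* fell, being at least 1.43-fold lower. In this comparison 17.1% of all genes passed.

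Genes whose levels followed those of a cadherin most closely were listed by Pearson's correlation over the 12 arrays of a line, which share treatments and slides. Over 13938 genes in SNU-449 cells, *CDH1* was followed closely by *FGL1* (r = 0.995) and *MYLK* (r = 0.992). *CDH2* was followed by *BMPR2* (r = 0.997), *TGFBI* (r = 0.995) and *DNMT3B* (r = 0.992), and *CDH6* by *MAP3K2* (r = 0.991), *UGT1A6* (r = 0.991) and *TNFRSF11B* (r = 0.984). Over 14844 genes in PLC/PRF/5 cells, the closest were *FRMD4B* (r = 0.963), *LRP4* (r = 0.960) and *BNIP3L* (r = 0.960) for *CDH1*, and *ABCC6* (r = 0.978), *MAF* (r = 0.976) and *lnc-GOLGA8J-3* (r = 0.974) for *CDH2*. These are the highest of many correlations, and no test was made.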

How the data were processed

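RNA of 24 cultures was labelled by a low-input Quick Amp procedure and hybridised to one-colour Agilent SurePrint G3 arrays. The authors deposited the scanner output of Feature Extraction (10.7.3.1), whose processed intensity is background-subtracted, and a table of normalized log2 values centred on each probe, which lacks *CDH3*, *CDH4*, *CDH11*, *CDH13* and *CDH17*.

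Control and outlier spots were removed, spots of a probe averaged, and log2 of the intensity over the 75th percentile of the spots taken. Probes were named by RefSeq (31104) or LNCipedia (10719) identifiers, and 16378 were unnamed. Probes entered a fit when all arrays of 1 group or more measured them well above background, and the brightest probe stood for its gene. Differences were tested with limma (3.58.1, R 4.3.3) over the 12 arrays of a line, or all 24 for differences involving both lines, and passed at a Benjamini-Hochberg adjusted p of 0.05. The script was tested on simulated data. Listed genes were named when they passed and changed at least 1.5-fold, all passing catenins included, and at most the 5 largest of a list. Some genes that this rule or the correlations would name are not reported here. The members and lists were chosen with earlier results of these data known. No probe was saturated, and the number of arrays limits the precision. The replicate number is the slide. Same-numbered cultures deviated together (every correlation over 0.1) for TGFβ1 against control in both lines, 0.13 to 0.22 in SNU-449 cells, and for both agents against TGFβ1 in SNU-449 cells. Alternatives are given in the closing section.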

Additional observations from a re-analysis of the deposited data

Results flagged for a closer look

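The effect of a treatment differed between the lines, by a test of the difference itself, in 5 results for the measured cadherins. For *CDH1*, SNU-449 minus PLC/PRF/5 cells, the difference was -2.22 on the log2 scale for TGFβ1, 2.17 for galunisertib and 2.95 for galunisertib added to TGFβ1. For *CDH2* it was 0.42 for TGFβ1 and -0.66 for galunisertib added to TGFβ1. The second *CDH2* probe gave 0.58 and -0.45 for the same comparisons.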

How the results depend on the processing

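Of 834 values recomputed, those of other settings kept direction and call in 473 cases, turned direction in 8, gained the call in 10 and lost it in 43, and those without 1 culture did so in 265, 12, 3 and 20. The numbers of cadherins passing were 1 for TGFβ1, 0 for galunisertib, 1 for both agents against TGFβ1 and 2 for both agents against galunisertib in PLC/PRF/5 cells. In SNU-449 cells they were 3, 2, 3 and 0. They were 2 for the line difference of both TGFβ1 and the addition of galunisertib to it, and 1 for the change of the TGFβ1 effect by galunisertib in SNU-449 cells.

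In PLC/PRF/5 cells the TGFβ1 count was 0 with median scaling, no scaling or the 2-fold threshold (over 2-fold and P below 0.001). Both agents against TGFβ1 gave 0 with these and the pooled t-test, and 2 with scaling to probes well above background on all arrays. Both agents against galunisertib gave 0 with these 3 settings, the pooled t-test or the authors' values. The count was 1 with no filter or the mean of probes. Galunisertib gave 2 with scaling to probes well above background and 1 with quantile normalization. In SNU-449 cells TGFβ1 gave 1 with the 2-fold threshold. Galunisertib gave 1 with median scaling or the 2-fold threshold and 0 with the pooled t-test. It gave 3 with quantile normalization, normexp, the mean of probes, or scaling or filtering to probes well above background on all arrays. Both agents against galunisertib gave 1 with normexp. The line difference of TGFβ1 gave 1 with every scaling, the halved floor, normexp, both filters or the replicate block. It also gave 1 with every probe fitted (by the brighter *CDH2* probe) or the 2-fold threshold. The line difference of the addition of galunisertib gave 1 with no scaling or the 2-fold threshold. The change of the TGFβ1 effect in SNU-449 cells gave 0 with median scaling, no scaling, quantile normalization, the replicate block or the 2-fold threshold. The replicate block changed no other call. The causes were not tested.

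Without 1 culture the counts ranged from 1 to 2 for the line difference of TGFβ1, 0 to 1 for both agents against TGFβ1 and 0 to 2 against galunisertib in PLC/PRF/5 cells, 2 to 3 for galunisertib and 0 to 1 for both agents against galunisertib in SNU-449 cells, and 0 to 1 for the change of the TGFβ1 effect there. Directions turned only for small differences that did not pass. *CDH1* with both agents against TGFβ1 in PLC/PRF/5 cells was 0.041 with median scaling. Against control it was -0.048 with scaling to probes well above background, -0.022 with quantile normalization and -0.0027 to 0.19 without 1 culture, and *CDH2* was -0.24 by the authors' values and -0.062 by the mean of probes. The change of the TGFβ1 effect on *CDH2* in PLC/PRF/5 cells was 0.046 with median scaling and -0.11 to 0.034 without 1 culture. The line difference of the galunisertib effect on *CDH2* was 0.0026 with scaling to probes well above background, 0.0097 with quantile normalization and -0.087 to 0.030 without 1 culture. With median scaling the median of all genes was as low as -0.41 (the line difference of adding galunisertib), against -0.07 in the main setting. All 284 passing values of listed genes kept their sign under the scalings tried. Dim signal limits *CDH1* in SNU-449 cells with TGFβ1.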

Other observations

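The array also held 14 probes for 9 long non-coding RNAs named after the cadherin genes, examined after their values were seen, of which 7 probes were measured. Of the 5 probes for lnc-CDH6-2, 4 were well above background in PLC/PRF/5 cells, on 12, 12, 11 and 5 of the 12 arrays, and none was on any SNU-449 array. *CDH6* itself had the opposite distribution, being at the floor throughout PLC/PRF/5 cells. With both agents against TGFβ1 alone in PLC/PRF/5 cells the 3 brighter probes fell, by 0.72 (adjusted p = 0.016 over all probes with limma), 0.64 and 0.63. The remaining probe was well above background on no array with both agents. In the same comparison, which called 39.1% of all genes, lnc-CDH1-1 rose by 0.60 (adjusted p = 0.013). In SNU-449 cells lnc-CDH2-1, well above background on 7 of 12 arrays, was higher with TGFβ1 by 0.93 (adjusted p = 0.0056) and lower with both agents against TGFβ1 alone by 0.80 (difference -0.80, adjusted p = 0.0080), with values near the floor.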
